A study of Mus musculus with 6 samples.

Results

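Guanylate-binding proteins (GBPs) and immunity-related GTPases (IRGs) are families of GTPases that cells make in response to interferons, above all interferon-gamma. The data described here are the transcripts of 10 of these genes in naive CD8 T cells, 7 GBP genes (Gbp2, Gbp3, Gbp4, Gbp6, Gbp7, Gbp8 and Gbp9) and 3 IRG genes (Igtp, Irgm1 and Irgm2). They were taken by symbol from a table of 11162 mouse genes, and all 10 were listed. They were chosen by family and selected on their RPKM values, with the difference between the sorted populations in view, so that difference is given for them as a description and not as a test.

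The cells came from the spleen of mice that carried Nur77-GFP (Tg(Nr4a1-EGFP)GY139Gsat), a transgene that makes green fluorescent protein from regulatory sequence of Nr4a1, an immediate early gene of T-cell receptor signalling. In every sample they had been sorted as CD8+, CD44lo, CD62Lhi and Qa2hi cells that carried OT-I, a transgenic T-cell receptor, and so stand for naive cells of a single specificity. The groups differed in the last gate: 3 libraries were made from Nur77-GFP-hi cells and 3 from Nur77-GFP-lo cells. No treatment, time, age or number of mice was named in the labels, so p-values measure the spread between these samples only, which may be technical.

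Interferon-gamma binds a receptor of the chains Ifngr1 and Ifngr2, the kinases Jak1 and Jak2 pass the signal on, and it reaches a DNA element called GAS. Type I interferons bind Ifnar1 and Ifnar2 and lead to a complex with Stat2 and Irf9 that binds another element, the ISRE, which Irf1 can also bind. GBPs are known for attacking vacuoles that hold pathogens, and some are anchored to membranes by a lipid added to their tail. Igtp, Irgm1 and Irgm2 belong to the regulatory IRGs, which sit on the membranes of the cell itself and hold the effector IRGs in check; in T cells, Irgm1 is known for limiting cell death under interferon-gamma.

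The 10 genes lie on 3 chromosomes of the mm10 (GRCm38) genome, here by GENCODE M21. Gbp7 (chr3:142530342-142550149), Gbp3 (chr3:142560026-142573209) and Gbp2 (chr3:142620602-142638008) are on the plus strand of chromosome 3. Gbp8 (chr5:105014150-105139540), Gbp9 (chr5:105077630-105139539), Gbp4 (chr5:105115767-105139586) and Gbp6 (chr5:105270702-105293698) are on the minus strand of chromosome 5. Irgm1 (chr11:48861968-48871683) is on the minus strand of chromosome 11, and Igtp (chr11:58199556-58207591) and Irgm2 (chr11:58199618-58222782) overlap on its plus strand. Gbp4, Gbp8 and Gbp9 are also annotated as overlapping on 1 strand, so a read there can belong to more than 1 of them.

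Members of each family resemble one another in sequence, which limits how surely a read can be assigned. Of all 50-base windows in the annotated transcripts of Gbp6, 70.65% also occur in another gene, led by the annotated copy Gm43302 (64.98%) and by Gbp10 (45.95%). The value of Gbp6 is therefore uncertain. The share was 18.12% for Gbp8, 12.74% for Gbp7, 11.77% for Igtp (all of it with Irgm2), 8.05% for Gbp9, 7.77% for Irgm2 and 7.70% for Gbp4. It was 3.75% for Gbp3, 2.03% for Gbp2 and 0.31% for Irgm1, whose transcripts are thus almost unique.

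What these genes share in sequence is shown first, in the stretches before their RefSeq start sites (GRCm38.p6). Promoter windows of 250 bases before to 50 bases after a start were at hand for 6 of the 10 genes, Gbp2, Gbp3, Gbp7, Igtp, Irgm1 and Irgm2. They were searched on both strands for the core of the ISRE, which is GAAA, any 2 bases and GAAA again, and for TTCNNNGAA, the core of GAS, which reads the same on both strands. No match of one overlapped a match of the other in the stretches shown. All 6 genes had at least 1 ISRE core, against 3.44% of 32851 windows of that length. A gene can have more than 1 window, and a further window of Gbp3 held 0 ISRE cores. A GAS core was found for 3 of the 6 (Gbp7, Igtp and Irgm2), against 8.30% of all windows, and both were found in 1 window for the same 3, against 0.454%. Of 9 other GBP and IRG genes with a window, 6 had an ISRE core, 4 had a GAS core and 4 had both in 1 window. Family genes on 1 chromosome, that of the IRG gene Iigp1, were left out of this count. In the stretches below, written 5′ to 3′ on the strand of the gene, capitals mark bases of these motifs. An ISRE core on the other strand begins with TTTC and ends with TTTC, as in the 3 GBP genes.
Gbp2: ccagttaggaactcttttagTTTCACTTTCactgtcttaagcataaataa
Gbp3: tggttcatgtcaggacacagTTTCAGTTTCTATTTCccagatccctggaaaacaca
Gbp7: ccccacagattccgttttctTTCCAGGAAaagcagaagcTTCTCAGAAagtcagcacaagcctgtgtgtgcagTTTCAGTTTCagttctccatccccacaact
Irgm1: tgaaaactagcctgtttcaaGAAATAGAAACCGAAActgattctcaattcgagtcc
Igtp: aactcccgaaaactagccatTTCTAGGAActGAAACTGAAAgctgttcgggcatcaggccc
Irgm2: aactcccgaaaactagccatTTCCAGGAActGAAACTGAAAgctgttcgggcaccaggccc

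The stretches are chr3:142620584-142620633 (Gbp2), chr3:142559979-142560034 (Gbp3), chr3:142530210-142530312 (Gbp7), chr11:48871415-48871470 (Irgm1), chr11:58199491-58199551 (Igtp) and chr11:58214882-58214942 (Irgm2). Igtp and Irgm2 carry nearly the same stretch, with a GAS core directly followed by an ISRE core. Gbp3 and Irgm1 each carry 2 overlapping ISRE cores and no GAS core. Gbp7 carries 2 GAS cores ahead of its ISRE core. Gbp2 has a single ISRE core, which begins at position -59 from its start site. A match is a description of these letters and not of binding.

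All 10 genes were expressed in naive CD8 T cells of both populations. Levels are given in RPKM, reads scaled to the length of the gene and the size of the library, a scale on which genes of different length can be compared. Over all 6 libraries, the mean level was 53.1 RPKM for Gbp4, 44.8 for Gbp9, 38.1 for Gbp2, 35.5 for Igtp, 31.3 for Gbp8 and 31.0 for Gbp7. It was 19.9 RPKM for Irgm1, 11.9 for Gbp6, 5.30 for Gbp3 and 3.77 for Irgm2. Gbp4 lay above Gbp9 in each of the 6 libraries, although their ranges overlapped. From Gbp9 down to Gbp7, neighbours changed places in at least 1 library. Below them, Gbp7, Irgm1, Gbp6, Gbp3 and Irgm2 kept this order in each of the 6 libraries, although the ranges of Gbp3 and Irgm2 overlapped. The library size recovered from the data was 26170000 to 35940000 reads, so Irgm2, the lowest of the 10, rested on 91 to 138 reads per kilobase of gene and Gbp4, the highest, on 1376 to 1924.

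**Figure D1:**
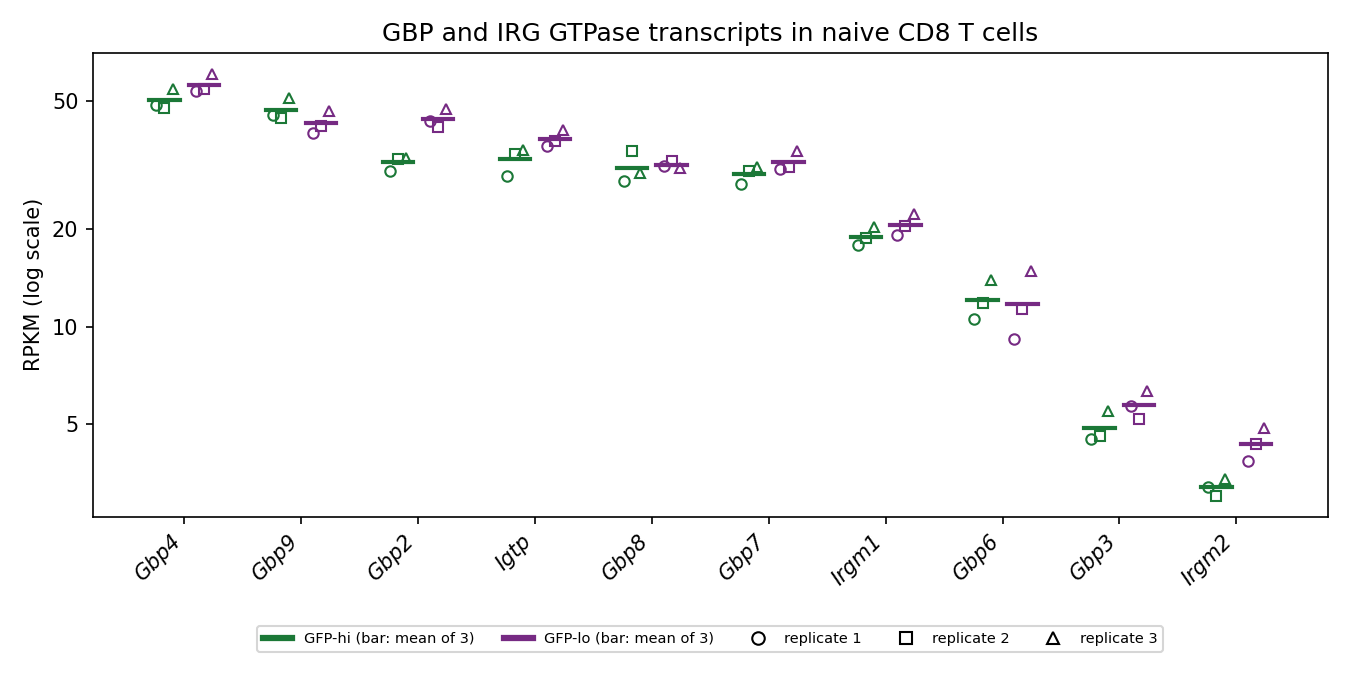
Level of each of the 10 GTPase transcripts in RPKM (vertical log axis) in the 3 GFP-hi (green) and 3 GFP-lo (purple) libraries; symbols are single libraries and bars are means. Gbp2, Igtp and Irgm2 have all GFP-hi symbols below all GFP-lo symbols, while Gbp9 has the higher mean in GFP-hi.

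The sort set cells with more Nur77-GFP against cells with less of it. Among the GTPases, 8 of 10 had a lower mean in GFP-hi cells, and the differences were small. The median log2 fold change of the 10 genes was -0.14, where that of all 9351 genes tested was 0.02. Fold changes here are GFP-hi over GFP-lo on the scale of log2(RPKM + 1), which understates the change of low genes, with the standard error from limma fitted to all genes. Of the 10 genes, 1 had a limma adjusted p under 0.05 (Gbp2, lower), beside 3.95% of all genes tested (2.46% higher and 1.49% lower). In 3 genes (Gbp2, Igtp and Irgm2) the libraries of GFP-hi all lay below those of GFP-lo, beside 9.84% of all genes tested, and in none did they all lie above, beside 17.1%. Groups were apart in either direction for 26.9% of all genes. Since these genes were picked on this contrast, nothing is read from the counts. In bulk RNA, fewer expressing cells and less RNA per cell cannot be told apart.

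On chromosome 3, Gbp2 had 30.3, 33.0 and 33.4 RPKM in the GFP-hi libraries, set against 43.4, 41.4 and 47.2 RPKM in the GFP-lo ones. The highest GFP-hi library was thus well below the lowest GFP-lo library. On average Gbp2 stood at 32.2 ± 1.70 and 44.0 ± 2.93 RPKM (SD, n = 3 each), a ratio of 0.733, or -0.44 on the log2 scale (standard error 0.067). The fold change lay between -0.50 and -0.39 in 17 alternative fits. Gbp2 passed the threshold in 14 of these, and missed it when GFP-hi replicate 1 (-0.39) or GFP-lo replicate 3 (-0.39) was left out and in the 4 libraries with lower heat-shock genes (-0.50).

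Gbp7, the neighbour of Gbp2 with the next level, had 27.7, 30.3 and 31.3 RPKM in the GFP-hi libraries, set against 30.8, 31.2 and 34.9 RPKM in the GFP-lo ones. These groups overlapped, with a log2 fold change of -0.11 (standard error 0.070). Gbp3 had 4.48, 4.61 and 5.50 RPKM against 5.69, 5.19 and 6.33 RPKM, also overlapping, with a log2 fold change of -0.20 (standard error 0.091). A ratio of 2 genes within a library is free of the scaling of that library. The level of Gbp2 over that of Gbp7 was 1.09, 1.09 and 1.07 in GFP-hi and 1.41, 1.33 and 1.35 in GFP-lo libraries, and these ratios did not overlap between the populations.

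On chromosome 5 the picture was mixed. Gbp4 had 48.4, 47.5 and 54.4 RPKM in the GFP-hi libraries, set against 53.5, 54.3 and 60.5 RPKM in the GFP-lo ones, with a log2 fold change of -0.16 (standard error 0.073) and 1 GFP-hi library inside the range of GFP-lo. Gbp9 went the other way, with 45.3, 44.2 and 50.99 RPKM against 39.9, 41.7 and 46.4 RPKM, a log2 fold change of 0.13 with a standard error of 0.078. Its groups overlapped, and the value was positive in all 17 alternative fits, from 0.07 to 0.19. Gbp4 and Gbp9 are annotated as overlapping, yet their fold changes differed in sign.

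Gbp8 had 28.2, 35.1 and 29.8 RPKM in the GFP-hi libraries, set against 31.4, 32.5 and 30.9 RPKM in the GFP-lo ones. The 3 GFP-hi values enclosed all GFP-lo values, and the log2 fold change was -0.03 (95% interval from -0.22 to 0.16). Gbp6 had 10.5, 11.8 and 14.0 RPKM against 9.13, 11.3 and 14.8 RPKM, with a log2 fold change of 0.05 (95% interval from -0.31 to 0.42). Its sign turned when GFP-hi replicate 3 (-0.05) or GFP-lo replicate 1 (-0.10) was left out and within the 4 libraries richer in nasal receptor transcripts (-0.09). That of Gbp8 turned without GFP-hi replicate 1 (0.04). No direction can be given for either gene.

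The ratio of Gbp2 to Gbp9 sets chromosomes 3 and 5 side by side, and this pair was picked after its values were seen. It was 0.668, 0.747 and 0.655 in GFP-hi and 1.09, 0.993 and 1.02 in GFP-lo libraries, with means of 0.690 ± 0.05 and 1.03 ± 0.0499 (SD, n = 3 each). Gbp9 was thus the more abundant of the pair in every GFP-hi library, and the pair was near equal in GFP-lo. The 4 genes on chromosome 5 summed to 140.1 ± 8.50 RPKM in GFP-hi and to 142.1 ± 9.58 RPKM in GFP-lo (SD, n = 3 each), whereas the 3 genes on chromosome 3 summed to 66.8 ± 3.95 and 82.1 ± 5.64 RPKM.

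The 3 regulatory IRG genes were all lower on average in GFP-hi cells. Igtp had 29.3, 34.3 and 35.1 RPKM in the GFP-hi libraries, set against 36.2, 37.5 and 40.7 RPKM in the GFP-lo ones. The groups did not overlap, by a narrow margin, and the log2 fold change was -0.21 (standard error 0.080). Irgm2 had 3.20, 3.0 and 3.37 RPKM against 3.84, 4.34 and 4.86 RPKM, again without overlap. Its means were 3.19 ± 0.184 and 4.35 ± 0.511 RPKM (SD, n = 3 each), a ratio of 0.733 like that of Gbp2, and its log2 fold change was -0.35 (standard error 0.084).

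Irgm2 missed the threshold over all genes, and passed it when GFP-lo replicate 1 was left out (-0.42) and within the 4 libraries richer in nasal receptor transcripts (-0.39). Irgm1 had 17.9, 18.8 and 20.3 RPKM in the GFP-hi libraries, set against 19.2, 20.5 and 22.4 RPKM in the GFP-lo ones, which overlapped, with a log2 fold change of -0.12 (standard error 0.073). The level of Irgm2 over that of Irgm1 was 0.179, 0.160 and 0.166 in GFP-hi and 0.200, 0.212 and 0.217 in GFP-lo libraries, so the ratio was lower in each GFP-hi library than in any GFP-lo library.

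**Figure D2:**
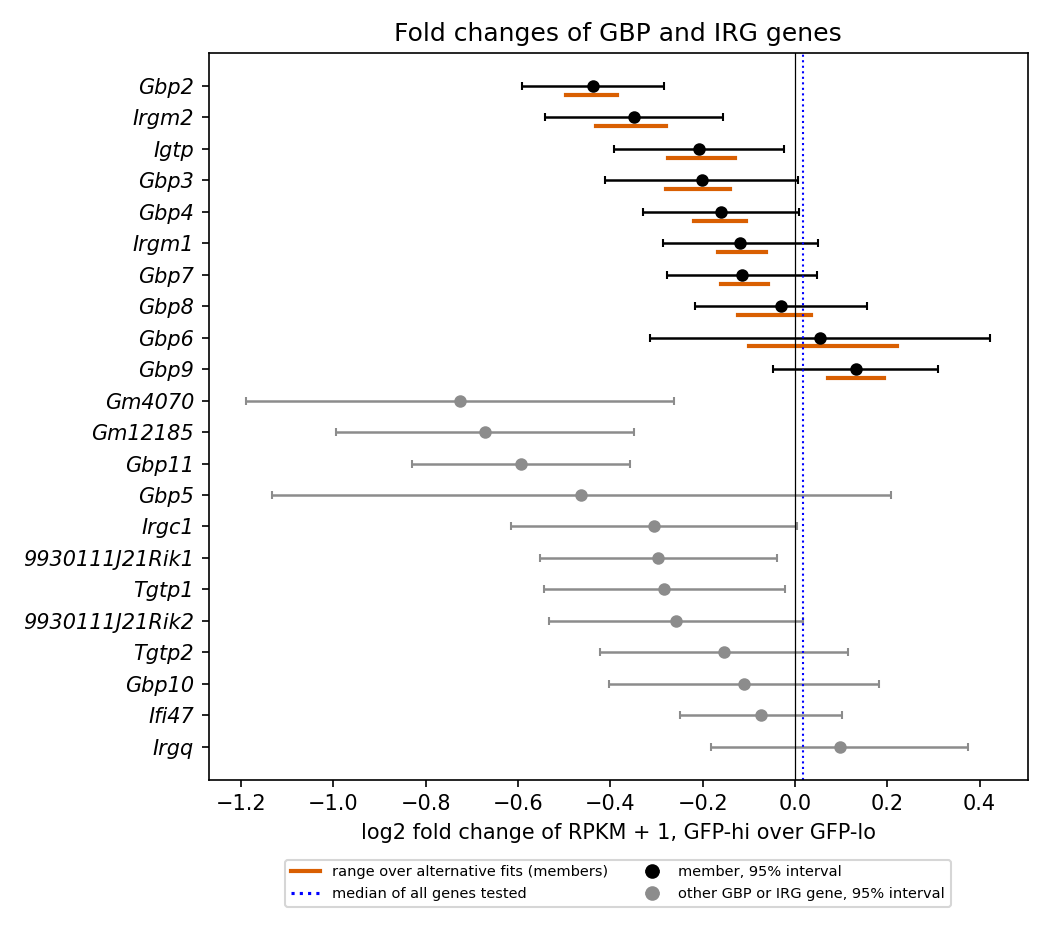
Log2 fold change of RPKM + 1, GFP-hi over GFP-lo (horizontal axis), with 95% intervals from limma, for the 10 members (black) and 12 further GBP and IRG genes (grey); orange bars span the members' values over the alternative fits, and the dotted line is the median of all genes tested. Most points lie left of 0; Gbp9, Gbp6 and Irgq lie to its right.

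Of 17 further GBP and IRG genes on a list made for comparison, 13 were in the table and 12 had the mean level of at least 1 RPKM needed for the test. The 2 that passed the limma threshold were both lower in GFP-hi, beside 3.95% of all genes tested that were called and 1.49% called lower. Of the 12, 11 had a negative log2 fold change, as did 4164 of all 9351 genes, and their median was -0.29. Gbp11, annotated as a polymorphic pseudogene beside Gbp6, had 2.31, 1.82 and 2.30 RPKM in the GFP-hi libraries, set against 4.25, 3.22 and 3.77 RPKM in the GFP-lo ones. It changed by -0.59 on the log2 scale (limma adjusted p = 0.020). Gm12185, an IRG gene annotated as overlapping Tgtp1 and 9930111J21Rik1 on the same strand, had 2.81, 2.35 and 3.51 RPKM against 5.07, 4.27 and 6.25 RPKM, and it was lower by the test (-0.67, limma adjusted p = 0.040). Neither gene's groups overlapped. Leaving out GFP-hi replicate 1 took the limma adjusted p of Gbp11 to 0.053, and leaving out replicate 1 or 3 of GFP-lo took it to 0.063 or 0.075. That of Gm12185 was over 0.05 in 7 of 16 alternative fits, up to 0.12, among them those without any 1 library other than GFP-hi replicate 3.

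The most abundant genes of both families were a pair of effector IRGs. Tgtp2 had 101 ± 9.55 and 113 ± 17.4 RPKM (SD, n = 3 each; log2 fold change -0.15) and Tgtp1 77.1 ± 7.96 and 94.3 ± 13.4 RPKM (-0.28), in GFP-hi and GFP-lo. Neither passed the test, and these 2 genes are near-identical copies. Ifi47, another effector IRG, had 23.7 ± 2.17 and 24.9 ± 1.34 RPKM (-0.07). The tandem IRG genes 9930111J21Rik1 (-0.30) and 9930111J21Rik2 (-0.26) had separate groups without passing the test, as did Gm4070 (-0.73), a gene of the very large inducible GTPases. Gbp5 (-0.46), Gbp10 (-0.11) and Irgc1 (-0.31) did not pass either. Irgq, an IRG relative that is not known to be induced by interferon, had a log2 fold change of 0.10 and overlapping groups. Iigp1, a classical effector IRG, was nearly silent, at 0.128 to 0.372 RPKM.

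The 10 genes also varied between libraries of the same population, a variation that does not involve the difference between GFP-hi and GFP-lo. The summed level of the 10 genes was 245.3, 262.7 and 278.2 RPKM in the GFP-hi libraries, set against 273.0, 280.0 and 309.0 RPKM in the GFP-lo ones. In GFP-hi, 9 of 10 genes were highest in replicate 3, and so were 9 of 10 in GFP-lo; Gbp8 was the exception in both. Libraries were numbered by record order, and the labels do not say whether libraries were made in pairs.

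After the mean of each population had been taken off, Pearson's r between 2 members over the 6 libraries had a median of 0.795 over 45 pairs, ranging from -0.372 to 0.988. It was highest for Gbp4 and Gbp9 (0.988), which lie at one locus, and for Gbp6 and Irgm1 (0.985), which lie on different chromosomes. Among the 36 pairs without Gbp8 the lowest r was 0.459, whereas the 9 pairs with Gbp8 had a median of 0.00. In replicate order, the mean deviation of the members was -0.091, -0.001 and 0.092 in GFP-hi and -0.0875, -0.0337 and 0.1212 in GFP-lo. Same-numbered libraries thus deviated alike, and r may rest on fewer than 6 separate patterns. The deviations sum to 0 in each population and come from the same 6 libraries, so r is a description and carries no p. Its median ranged from 0.63 (without GFP-lo replicate 3) to 0.88 (without GFP-hi replicate 2).

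Genes stimulated by type I interferon varied with the GTPases from library to library. Of 30 such genes tested, 23 had an r over 0.8 with the mean deviation of the 10 members, beside 5.71% of 9341 other genes tested, and the median r of the list was 0.93. The median deviation of the list was -0.18, -0.04 and 0.21 (log2 scale) in the GFP-hi libraries and -0.16, -0.05 and 0.22 in the GFP-lo libraries. Of 17 antigen-processing and related targets of interferon-gamma, 2 had an r over 0.8. The median r of that list was 0.62, below that of the type I list but above the 0.01 of all 9341 other genes. Of 12 receptors, kinases and factors, 3 had an r over 0.8, and their median r was -0.10. The genes most like the 10 members were Ifih1, a sensor of viral RNA (r = 0.999), Cdc42se2 (0.996), Plaat3 (0.995), Akr1c13 (0.992) and H3c7 (0.991), over 6 libraries.

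Other features moved with these libraries too. Transcripts of nasal receptor genes, which T cells should lack, had their highest median in the same 2 libraries, at 0.419 RPKM in GFP-hi replicate 3 and 0.583 RPKM in GFP-lo replicate 3, against 0.037 to 0.292 RPKM elsewhere. Of 6 NK cell markers, Ncr1, Klrb1c, Klra8, Klra4 and Tyrobp were not listed. Only Eomes was, and it too was highest in these 2 libraries, at 8.14 and 7.68 RPKM against 5.49 to 6.16 RPKM. By itself it does not show that NK cells were present. Whether the nasal receptor transcripts or Eomes had a part in the variation of the GTPases was not tested.

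**Figure D3:**
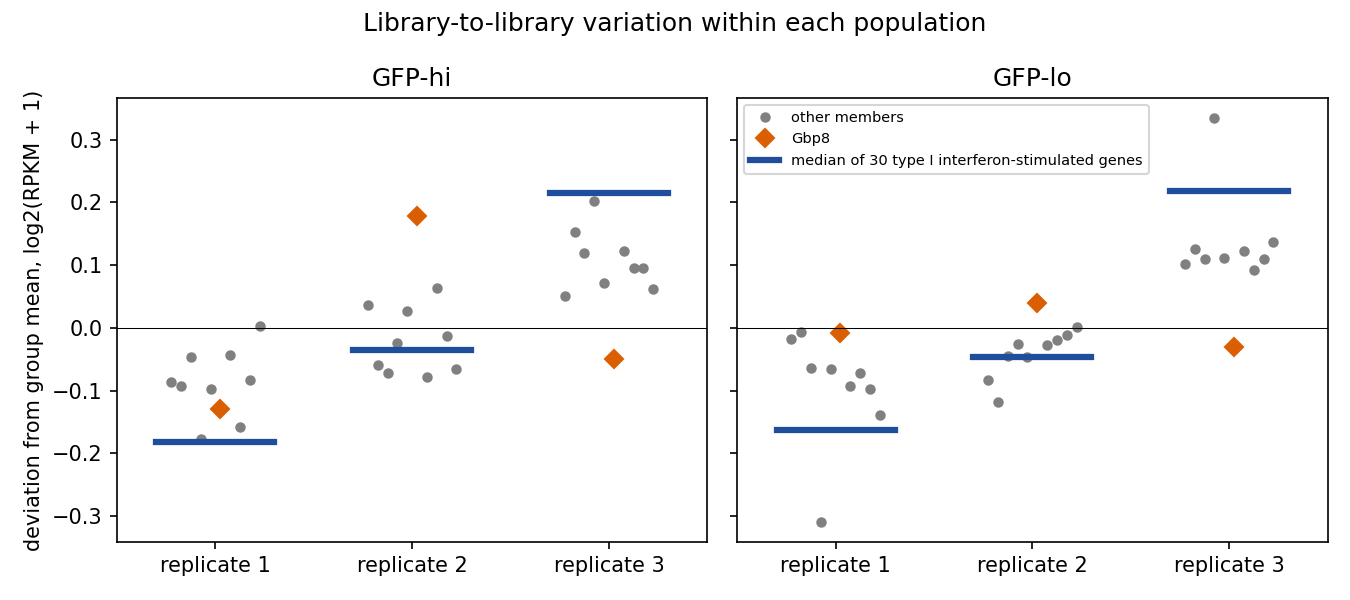
Deviation of each member from the mean of its population, in log2(RPKM + 1), in the 3 GFP-hi (left) and 3 GFP-lo libraries (right); grey points are 9 members, diamonds are Gbp8 and blue bars the median of 30 type I interferon-stimulated genes. In replicate 3 of both populations the blue bar and all grey points lie above 0 and Gbp8 lies below.

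In the signalling pathway upstream of these genes, the chain Ifngr1 was lower in GFP-hi cells. Of 12 receptors, kinases and factors tested, 1 passed the limma threshold, beside 3.95% of all genes, and 6 of 12 had negative fold changes. That gene was Ifngr1, the ligand-binding chain of the interferon-gamma receptor, with 48.5, 52.1 and 52.2 RPKM in the GFP-hi libraries, set against 73.4, 73.1 and 77.4 RPKM in the GFP-lo ones. It fell by 0.54 on the log2 scale (standard error 0.055, limma adjusted p = 0.0024), was lower in each GFP-hi library than in any GFP-lo library, and passed in all 17 alternative fits (-0.57 to -0.51).

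The partner chain Ifngr2 had 7.27, 9.61 and 7.15 RPKM in the GFP-hi libraries, set against 6.79, 8.09 and 7.18 RPKM in the GFP-lo ones, which did not pass the test (0.10, limma adjusted p = 0.67, 95% interval from -0.15 to 0.36). The level of Ifngr1 over that of Ifngr2 was 6.46 ± 0.957 in GFP-hi and 10.2 ± 1.02 in GFP-lo (SD, n = 3 each). The chains of the type I receptor, Ifnar1 (0.03) and Ifnar2 (0.03), did not pass the test.

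The kinases Jak1 (0.01), Jak2 (0.06) and Tyk2 (-0.04) and the factors Stat2 (-0.05), Irf9 (0.07) and Irf2 (-0.08) missed the threshold. Irf1, which binds ISRE-like sequence, had 55.3, 68.4 and 56.8 RPKM in the GFP-hi libraries, set against 76.8, 80.5 and 70.8 RPKM in the GFP-lo ones, with no overlap, a log2 fold change of -0.34 and a limma adjusted p of 0.083. Its adjusted p ranged from 0.019 to 0.24 over 17 alternative fits, and it passed in 3 of them. It passed with quantile normalization, without GFP-hi replicate 2 and within the 4 libraries richer in nasal receptor transcripts. The latter 2 fits kept replicate 2 of GFP-lo but not that of GFP-hi, and Irf1 was highest in replicate 2 of both populations. Irf8 was below the level needed for the test, at 1.09, 0.917 and 1.14 RPKM in the GFP-hi libraries, set against 0.474, 0.667 and 0.534 RPKM in the GFP-lo ones.

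**Figure D4:**
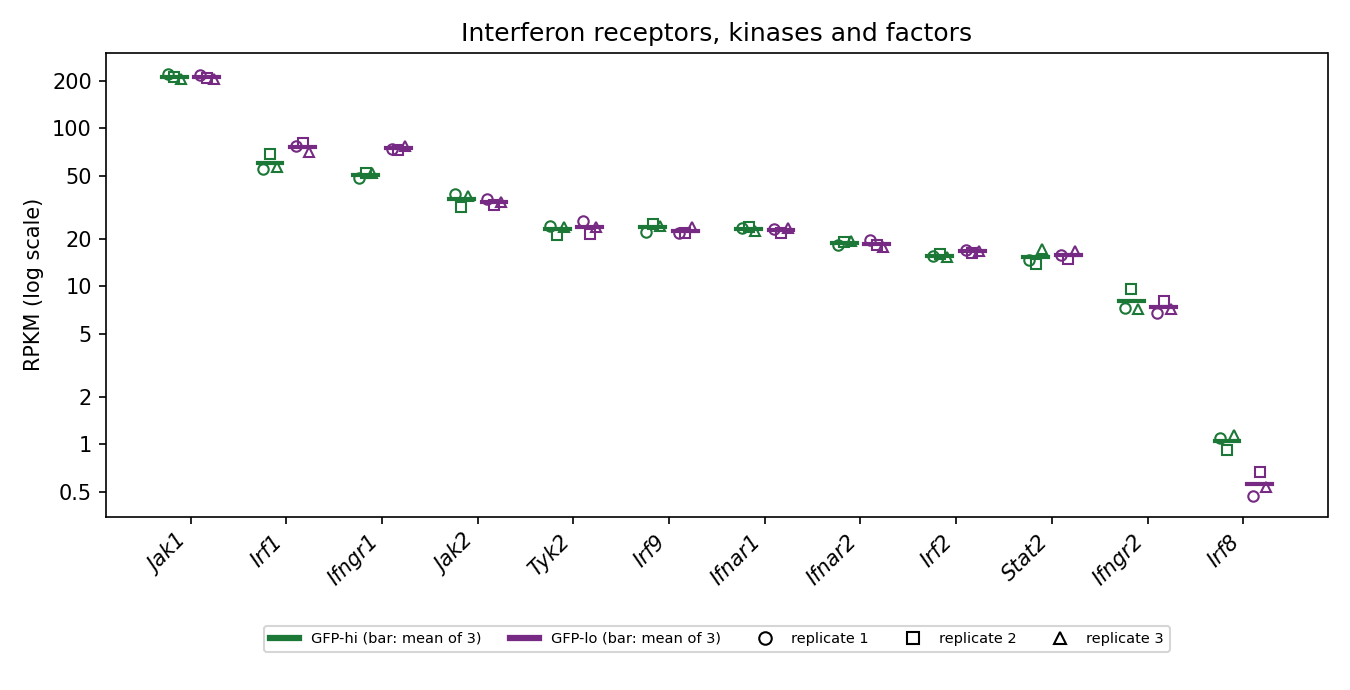
Level in RPKM (vertical log axis) of the interferon receptors, kinases and transcription factors named in the text in the 3 GFP-hi (green) and 3 GFP-lo (purple) libraries; bars are means. Ifngr1, Irf1 and Irf2 have separate groups with GFP-hi lower, and Irf8 has separate groups with GFP-hi higher. Jak1, Jak2 and Ifnar1 have groups that overlap.

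Of 8 inhibitors of interferon and cytokine signalling tested, 1 passed the limma threshold. It was lower in GFP-hi, beside 1.49% of all genes tested that were called lower. Socs3, an inhibitor of cytokine receptors, had 27.3, 45.6 and 36.6 RPKM in the GFP-hi libraries, set against 63.4, 76.9 and 68.2 RPKM in the GFP-lo ones, and it fell by 0.93 on the log2 scale (limma adjusted p = 0.021). The call was lost when GFP-hi replicate 3 was left out (limma adjusted p = 0.053). It was also lost when any 1 GFP-lo library was, with an adjusted p of 0.061 for replicate 1, 0.083 for replicate 2 and 0.072 for replicate 3. Socs1, the main brake on the interferon-gamma receptor, did not pass (-0.24, limma adjusted p = 0.26), nor did Usp18 (-0.24), Pias1 (-0.11), Ptpn1 (-0.04), Ptpn2 (0.05), Ptpn6 (-0.04) or Ptpn11 (0.09). The heat-shock and early response genes, which respond to handling, summed to 2966 to 6877 RPKM in GFP-hi and to 3795 to 7737 RPKM in GFP-lo. None of 13 passed the limma test (1 had an unadjusted p under 0.05, Junb, -0.47), 10 of 13 had negative log2 fold changes, and the median was -0.30. Within the 4 libraries with lower Hspa1a and Hspa1b, 3 of the 13 were called lower, and 1 was within the 4 richer in nasal receptor transcripts. The latter 4 hold GFP-lo replicate 2, which is high in Hspa1a and Hspa1b, but not GFP-hi replicate 2, which is also high. With all libraries, Hspa1b (-0.36), Hspa1a (-0.40) and Hspe1 (0.28) overlapped between the populations. Junb, the largest fall, did not overlap, with 542, 750 and 578 RPKM in GFP-hi and 824, 944 and 808 RPKM in GFP-lo. It was the only 1 of the 13 with separate groups, beside 26.9% of all genes tested. The part of the heat-shock and early response genes in the lower Socs3 was not tested.

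Few other targets of interferon passed the test. Of 17 antigen-processing and related targets of interferon-gamma, 1 was lower and 0 were higher by the limma test, with a median log2 fold change of -0.05. Log2 fold changes were negative for 11 of 17, and 4 had all GFP-hi libraries below all GFP-lo libraries, beside 9.84% of all genes, while 1 had them all above, beside 17.1%. The list, in which B2m is the most abundant, summed to 1733, 1833 and 1870 RPKM in the GFP-hi libraries, all below the sums of 1877, 1970 and 1989 RPKM in the GFP-lo ones. Cd274, which encodes the inhibitory ligand PD-L1, had 11.6, 12.2 and 13.5 RPKM in the GFP-hi libraries, set against 16.2, 14.9 and 17.8 RPKM in the GFP-lo ones (-0.36, limma adjusted p = 0.049). Its call was marginal: adjusted p ranged from 0.039 to 0.15 over 17 alternative fits, and it passed in 5. B2m (-0.12) and Tapbp (-0.07), the most abundant of the list, did not pass, nor did Wars, the largest rise (0.10).

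Of 30 type I interferon-stimulated genes, 2 were lower and 0 higher, beside 1.49% and 2.46% of all genes tested. Fold changes were negative for 15 and positive for 15, with a median of -0.01. In 3 genes all GFP-hi libraries lay below all GFP-lo libraries, beside 9.84% of all genes, and in 1 they all lay above, beside 17.1%. The lower genes were Ly6a (6.96 ± 1.81 against 14.3 ± 3.45 RPKM, limma adjusted p = 0.034) and Ly6e (47.2 ± 3.0 against 60.4 ± 1.40 RPKM, limma adjusted p = 0.020; SD, n = 3 each), both encoding small surface proteins. Over the alternatives Ly6a passed in 9 of 17 and Ly6e in 13 of 17, and their limma adjusted p reached 0.17 and 0.11. Ifi27l2a (0.15), Bst2 (-0.05) and Isg15 (0.21), the most abundant genes and the largest rise, had overlapping groups. The list thus varied strongly between libraries and had a median near 0 between the populations.

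Transcripts of the proteins that GBPs and IRGs work with were compared last. None of 11 genes of LC3 conjugation and the GABARAP family, which guide these GTPases to vacuoles, passed the limma threshold with all libraries, and 2 had an unadjusted p under 0.05, beside 20.2% of all genes tested. In 3 of 17 alternative fits, those of both sets of 4 libraries and that without GFP-hi replicate 2, 1 of them was called higher. The largest rise, Gabarapl1, had 3.46, 2.14 and 3.38 RPKM in the GFP-hi libraries, set against 1.80, 1.76 and 1.62 RPKM in the GFP-lo ones, without overlap (0.53, limma adjusted p = 0.070). Atg3 (0.07) and Gabarap (0.13), the most abundant, and Map1lc3a (-0.08), the largest fall, had overlapping groups. None of 5 genes of prenylation, which adds the lipid tail of some GBPs, passed either, with none at an unadjusted p under 0.05 (0 of 5), and their fold changes ran from -0.08 for Icmt to 0.04 for Rce1; Fnta (0.02) and Rce1 were the most abundant.

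**Figure D5:**
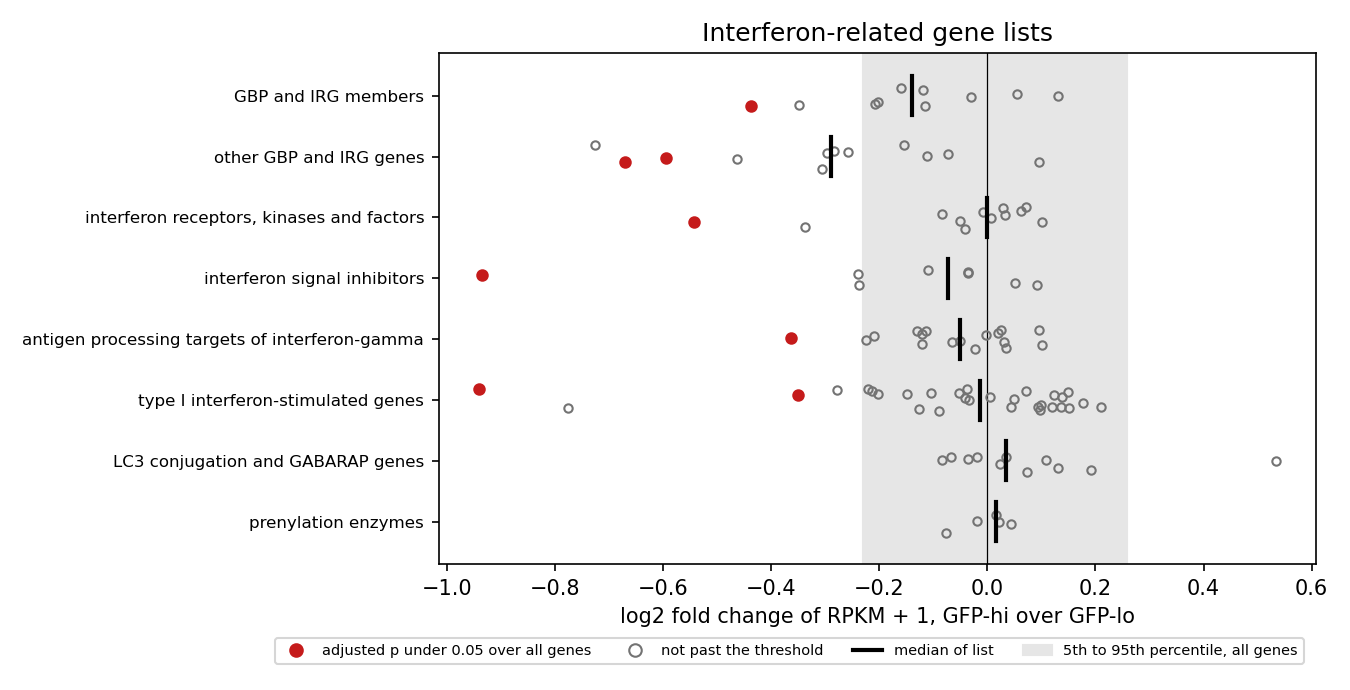
Log2 fold change of RPKM + 1, GFP-hi over GFP-lo (horizontal axis), of the tested genes of 8 lists; points are genes, filled red where the limma adjusted p over all genes was under 0.05, black bars are list medians and the grey band holds the middle 90% of all genes tested (-0.23 to 0.26). The medians of the members (-0.14) and of the other GBP and IRG genes (-0.29) lie left of those of the other lists shown. The heat-shock and early response list, which is not shown, had a median of -0.30.

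Across the 298 tested genes with an ISRE core in a promoter window, 5.03% passed the limma threshold (7 higher and 8 lower), beside 3.94% of the 7616 tested genes that had a window. Their median log2 fold change was -0.02, against 0.02. With the members left out, 4.79% of 292 genes passed (7 higher and 7 lower), and the median was -0.02. The motif that the 6 GTPase genes share was therefore also found in genes that did not pass the test.

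Of 9351 genes tested, 230 were higher and 139 lower in GFP-hi. Nr4a1 (log2 fold change 0.02, limma adjusted p = 0.98, with a sign that turned, among others, under quantile and trimmed mean scaling) and the GFP transcript (0.15, limma adjusted p = 0.42) did not pass the test, so neither transcript checks the sort. None of 6 tested factors induced by the T-cell receptor passed, from Egr1 (-0.31) to Egr2 (0.08), with Myc (0.06) the most abundant after Nr4a1. All 10 markers of naive CD8 T cells were present, led by Cd8b1 (-0.01) and Tcf7 (-0.06), and summed to 2458 to 2792 RPKM. The receptor of interleukin-7, Il7r, was the only one called (-0.80, limma adjusted p = 0.0022), and Lef1 had the largest rise (0.17).

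Some genes on the lists of markers of other cells differed between the populations, without a common direction. Of 5 CD4 T cell markers 2 were listed, and Cd4 itself was not. They summed to 17.2 to 26.2 RPKM in GFP-hi and to 36.3 to 47.8 RPKM in GFP-lo, but they went opposite ways: Cd40lg was lower in GFP-hi (-1.13, limma adjusted p = 0.011) and Izumo1r higher (1.17, limma adjusted p = 0.00087). Of 6 B cell markers 2 were listed, summing to 12.5 to 14.2 RPKM in GFP-hi and to 10.9 to 11.3 RPKM in GFP-lo, nearly all of it Cd79b (0.26, limma adjusted p = 0.075); Cd79a was not. Of 11 macrophage and dendritic cell markers, from cells rich in GBPs, 3 were listed, at 1.43 to 2.35 RPKM for GFP-hi and 1.73 to 2.79 RPKM for GFP-lo. Cd68 (-0.21) was the only one tested, and Lyz2, Csf1r and Adgre1 were not listed. The part of these markers in the levels of Gbp2, Irgm2 and Ifngr1 was not tested.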

How the data were processed

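RNA-seq was analysed for 3 GFP-hi and 3 GFP-lo samples of polyA RNA; per the labels' protocols, cDNA was made with SMART-seq v4 and libraries with Nextera XT. The authors deposited RPKM values, 1 column per sample per the file headers; STAR and mm10 are named in the submitters' processing notes, and the counter and the gene lengths are not given in the sources used here. The table lists 11162 genes, of which 14 symbols had become dates and 1 was blank; these were looked up by Entrez ID. Genes with a mean of at least 1 RPKM (9351) were tested with limma 3.58.1 in R 4.3.3 (lmFit, eBayes with trend) on log2(RPKM + 1), two-sided, with Benjamini-Hochberg adjustment over all of them and a threshold of 0.05. On simulated data with 200 of 9351 genes changed by 1 (log2), 95.9% were recovered and 4.05% of calls were false. No member changed by that much, the largest change being -0.44 for Gbp2. The recovered share therefore does not apply to changes of the size seen in the members. Library sizes were recovered from the step 1 read makes in low values of genes with 1 GENCODE transcript, and 75.0% to 87.0% of these values fell within 0.1 of a whole read (20% would by chance). Counting error is a lower limit, since reads include PCR copies.

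The members and gene lists were chosen with earlier results of these data known. Named genes are all members and listed family genes, the tested receptors, kinases, factors and inhibitors (1 of these is not reported here), and from each other list its called genes, its 2 most abundant and its largest rise and fall; the 5 genes most like the members; and Nr4a1 and GFP. Irf8, Junb and the ratios of gene pairs were added after their values were seen, although Junb also meets the rule for its list. Hspa1a, which does not, defines a set of libraries together with Hspa1b. Marker genes are named from their lists. Alternatives changed the pseudocount, filter, scaling, variance model and samples. They include 2 sets of 4 libraries: those with lower Hspa1a and Hspa1b (replicates 1 and 3 of each population), and those richer in transcripts of 41 nasal receptor genes (GFP-hi replicates 1 and 3, GFP-lo replicates 2 and 3). Hspa1a and Hspa1b were high in replicate 2 of both populations. The nasal receptor set and the fit without GFP-hi replicate 2 keep only that of GFP-lo, so there the populations also differ in heat-shock genes. Leaving out GFP-lo replicate 2 does the reverse. Sequences are from RefSeq (GRCm38.p6). Libraries within a population had Pearson's r of 0.988 to 0.996 over genes.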

Additional observations from a re-analysis of the deposited data

How the results depend on the processing

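Over 17 alternative fits (16 for Irgm2), the fold change kept its sign in every member but Gbp6 (turned in 3) and Gbp8 (turned in 1). The median over the members ran from -0.19 to -0.08. No member moved by more than its spread between replicates (1 SD). Most of these fits could not show such a move: filter and variance model leave the fold change as it is. Leaving out 1 of 3 libraries cannot shift it that far. No scaling moved the median of all genes by over 0.1. The number of members called, 1 in the fit reported, was 0 in the 4 libraries with lower Hspa1a and Hspa1b and 2 in the 4 libraries richer in nasal receptor transcripts, and 0 to 2 when 1 library was left out. Over all genes, 369 were called; 202 were with a mean of at least 5 RPKM, 101 in the 4 libraries with lower heat-shock genes and 133 to 315 when 1 library was left out (for GFP-lo, 235 with replicate 1 left out, 133 with replicate 2 and 157 with replicate 3; for GFP-hi, 153 with replicate 1 left out, 315 with replicate 2 and 186 with replicate 3). With trimmed mean of M values scaling 200 were higher and 183 lower, against 230 and 139. Of the antigen-processing list, 0 genes were called with a pseudocount of 0.1, with no filter, with a mean of at least 5 RPKM, without the variance trend and in both sets of 4 libraries, and 3 with quantile normalization and with trimmed mean of M values. Of the other GBP and IRG genes, 0 were called with a mean of at least 5 RPKM, where fewer were tested, and 1 in each set of 4 libraries. Of the receptors, kinases and factors, 2 were called with quantile normalization and in the 4 libraries richer in nasal receptor transcripts, and in the latter 2 inhibitors. Of the type I genes, 1 was called with robust eBayes and in the 4 libraries richer in nasal receptor transcripts, and 0 in those with lower heat-shock genes. Without 1 library, 0 to 2 of the other GBP and IRG genes were called, 1 to 2 of the receptors, kinases and factors, 0 to 1 of the inhibitors, 0 of the antigen-processing genes, 0 to 3 of the type I genes, 0 to 1 of the LC3 and GABARAP genes and 0 to 1 of the heat-shock and early response genes (1 without GFP-hi replicate 2 in both). In each set of 4 libraries 1 LC3 or GABARAP gene was called higher, and 3 heat-shock and early response genes were called lower in the set with lower Hspa1a and Hspa1b and 1 in the other. The cause was not tested where none is given. No paired analysis was made because the labels and columns carry no replicate numbers. The numbers used come from record order and do not show which libraries, if any, were made together. Same-numbered libraries could stand apart alike, however. Hspa1a and Hspa1b summed to 3004 RPKM in replicate 2 of GFP-hi and 3367 RPKM in that of GFP-lo. They summed to 496 to 738 RPKM in the other 4 libraries. In replicate order, Nr4a1 had 56.6, 90.9 and 37.0 RPKM in GFP-hi and 63.1, 84.9 and 33.8 RPKM in GFP-lo. The fit treats the 6 libraries as separate, so anything shared by same-numbered libraries is left out of its p-values. With 3 libraries a group, differences the size of those of Igtp or Gbp3 missed the threshold over all genes, which does not show that they are absent.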
